A study of Homo sapiens with 12 samples.

Results

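PDGFA, PDGFB, PDGFC, VEGFA, VEGFB, VEGFC, ANGPTL4, STC1 and STC2 encode secreted factors and were followed while A549 cells, which derive from a human lung adenocarcinoma, were exposed to TGFβ. They were chosen by name, with earlier results of these data known, as 9 of the 29035 genes in the count table. A549 cells of lung origin were grown in serum-containing medium, seeded the day before treatment, and given TGFβ at 4 ng/mL to induce epithelial-to-mesenchymal transition (EMT). The times of harvest were 0 h (without TGFβ), 0.5 h, 12 h, 24 h, 48 h and 96 h, and every time had 2 CEL-Seq2 libraries. There was no untreated culture at the later times, so time in culture and time with TGFβ cannot be told apart. Medium with TGFβ was renewed every other day, so renewal of medium and ligand is also confounded with the later times. Whether replicates came from separate cultures is not in the labels, so a p-value here speaks only for the spread of these libraries, which may be technical. All cells were of 1 cancer line.

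The platelet-derived growth factors PDGFA, PDGFB and PDGFC are dimeric ligands of the receptor tyrosine kinases PDGFRA and PDGFRB and act mainly on fibroblasts, smooth muscle cells and pericytes. The vascular endothelial growth factors VEGFA, VEGFB and VEGFC act through FLT1, KDR and FLT4, with neuropilins as co-receptors, on blood and lymphatic endothelium. ANGPTL4 is a secreted inhibitor of lipoprotein lipase that also acts on endothelial junctions and cell adhesion, and it is a known target of PPAR factors, hypoxia and TGFβ. STC1 and STC2 are stanniocalcins, secreted glycoproteins linked to calcium and phosphate balance and to cellular stress.

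Upstream sequences are shown for ANGPTL4, which rose early, and for VEGFB, which rose late, because these were the member promoters that held a match to the SMAD, hypoxia, AP-1 or PPAR words searched. The sequences are the 250 bases before the RefSeq start on GRCh38.p14, written 5′ to 3′ on the gene's own strand, for ANGPTL4 at chr19:8363905-8364154 (plus strand) and for VEGFB at chr11:64234334-64234583 (plus strand). Capitals mark GACGTG, which holds the hypoxia response core ACGTG, in ANGPTL4, and CAGACA, a SMAD word, in VEGFB, both read on the opposite strand.
ANGPTL4: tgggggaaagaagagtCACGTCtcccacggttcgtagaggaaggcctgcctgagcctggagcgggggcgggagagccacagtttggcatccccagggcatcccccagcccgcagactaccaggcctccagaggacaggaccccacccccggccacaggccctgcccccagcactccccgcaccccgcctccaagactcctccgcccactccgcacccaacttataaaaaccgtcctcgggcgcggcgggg
VEGFB: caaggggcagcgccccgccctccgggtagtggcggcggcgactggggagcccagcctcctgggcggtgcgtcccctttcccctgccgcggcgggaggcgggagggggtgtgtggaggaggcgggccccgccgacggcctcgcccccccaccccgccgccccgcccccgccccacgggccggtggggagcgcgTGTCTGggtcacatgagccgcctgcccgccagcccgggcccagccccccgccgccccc

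The ANGPTL4 match began at position -234 and the VEGFB match at position -58, counting back from -1 at the base before the start. GACGTG was in 6.50% of the 35116 RefSeq promoter windows of this length, ACGTG in 18.5% and CAGACA in 13.6%. The promoters of VEGFC, STC2 and PDGFA (4 windows) held no CAGACA, no ACGTG and none of the other words searched on either strand. These were a SMAD palindrome, a longer hypoxia word, an AP-1 word and the PPAR direct repeat of AGGTCA with 1 base between. Over all windows the SMAD palindrome GTCTAGAC was in 0.182%, the longer hypoxia word TACGTG in 2.76%, the AP-1 word TGANTCA in 6.57% and the PPAR repeat in 0.0171%. The SP1 word GGGCGG was in 42.6% of windows, with 2 matches for ANGPTL4, 6 for VEGFB, 2 for VEGFC, 1 to 5 in the windows of PDGFA and 0 for STC2. A match describes letters in these windows only, and promoters of the other 4 members were not analysed here.

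In all, 1871 cells were kept of 4608 wells, 54 to 217 per library, with summed counts of 1264369 to 4500683 unique molecular identifiers (UMIs) over 15872 genes per library. UMIs count captured mRNA molecules, from the 3′ end of each mRNA. The 96 h libraries were the smallest (54 and 64 cells) and, with 48 h replicate 2, had the lowest median mitochondrial share, 20.3% to 21.1% against 21.9% to 25.01% in the others. A549 epithelial markers summed to 11178 to 18429 counts per 1000000 counts (CPM) per library with all 10 detected. Endothelial markers summed to 3.76 to 12.9 CPM (7 of 9 in the table), with PECAM1 and CDH5 at 1 count each over all libraries. EGFL7, with 285 counts, made up 12.5 of the 12.8 CPM at 48 h. Immune markers summed to 0.229 to 9.55 CPM (3 of 8 in the table) with PTPRC at 0 counts. CD14, with 124 counts, made up 8.19 of the 8.34 CPM at 0 h. Fibroblast and pericyte markers summed to 19.4 to 100.3 CPM, with a mean of 21.6 CPM at 0 h and 83.4 CPM at 96 h. COL6A3, a collagen VI chain, made up 77.6 CPM of the 96 h value, while DCN had 1 count and CSPG4 1 count in all. The rest of this list had 38 (THY1), 26 (LUM), 25 (RGS5), 19 (PDGFRA), 12 (ACTA2) and 2 (PDGFRB) counts. Of this list COL6A3 and LUM were tested for change. Whether these markers bear on the results for the 9 genes was not tested.

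All 9 genes varied over the 6 time points (F test over the 5 differences, edgeR quasi-likelihood, Benjamini-Hochberg adjustment over 10466 genes tested), against 28.2% of all genes tested. Their adjusted p ranged from 2.10e-12 for ANGPTL4 to 0.00125 for VEGFB. At 0.5 h, 2 of the 9 were higher than at 0 h and 0 lower, where 0.401% of genes were higher and 0.0478% lower. At 12 h, 5 were higher and 1 lower (8.47% and 5.83% of genes). At 24 h the same numbers, 5 higher and 1 lower, were found against 7.62% and 5.56%. At 48 h, 6 were higher and 1 lower, against 10% and 8.48%. At 96 h, 8 were higher and 0 lower, against 12.5% and 11.1%. The median log2 change of the 9 genes against 0 h was 0.41, 1.43, 1.20, 1.56 and 2.23 at these times in order, while that of all genes tested lay between -0.02 and 0.03. All these comparisons share the 0 h libraries. Because the members were chosen with earlier results of these data known, their counts beside those of all genes are a description only.

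**Figure D1:**
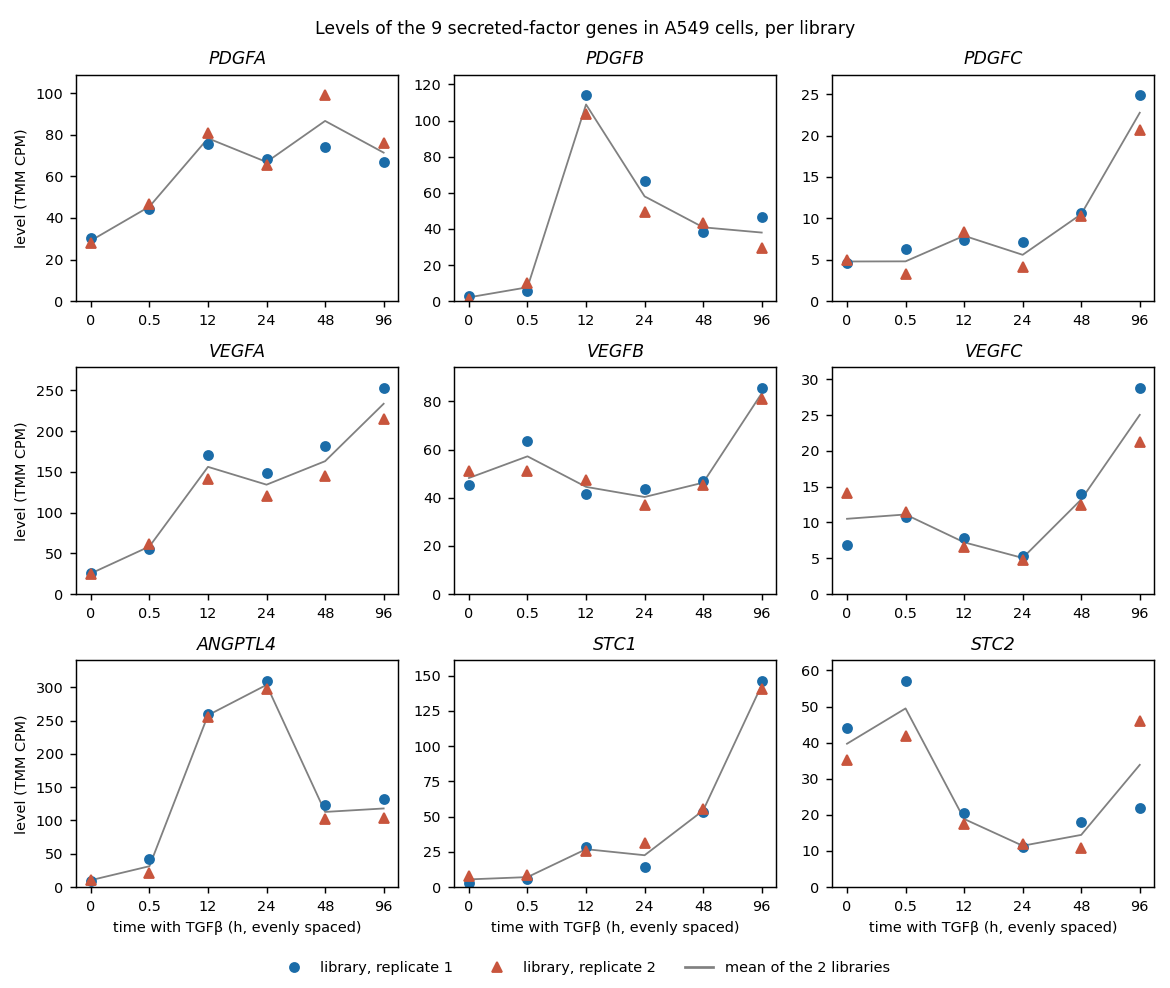
Level of each of the 9 genes (y axis, TMM-scaled CPM of the library sum, starting at 0 and scaled per gene) at each time with TGFβ (x axis, hours, evenly spaced and not to scale), as points for the 2 libraries and a line for their mean. PDGFB peaked at 12 h (mean 109 CPM), ANGPTL4 at 24 h (304 CPM), and VEGFA, STC1, PDGFC, VEGFB and VEGFC had their highest means at 96 h.

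PDGFB made the largest change of the PDGF ligands, a 50.7-fold rise by 12 h. The gene (ENSG00000100311, chromosome 22, 39223359 to 39244982, minus strand, GRCh38) encodes the PDGF B chain, whose last exon (39223359 to 39225313) carries the 3′ end that was counted. Its levels, for replicates 1 and 2, were 2.74 and 1.45 CPM at 0 h, 5.41 and 9.90 CPM at 0.5 h, 114 and 104 CPM at 12 h, 66.8 and 49.3 CPM at 24 h, 38.4 and 43.3 CPM at 48 h, and 46.7 and 29.3 CPM at 96 h. Both libraries of every later time lay above both 0 h libraries, and both 12 h libraries lay above all the rest. The 0 h level rested on 10 and 5 counts. The log2 change was 5.66 ± 0.32 (SE) at 12 h (adjusted p = 8.33e-12), 4.77 ± 0.33 at 24 h (adjusted p = 3.13e-10), 4.24 ± 0.35 at 48 h (adjusted p = 3.32e-09) and 4.13 ± 0.38 at 96 h (adjusted p = 1.32e-08). At 0.5 h it was 1.86 ± 0.43, with an adjusted p of 0.0589. DESeq2 gave this early difference an adjusted p of 0.0408.

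PDGFB was then lower at 96 h than at 12 h, by 1.53 ± 0.24 on the log2 scale (2.89-fold lower, adjusted p = 9.77e-05). Its difference between 24 h and 12 h, -0.90 ± 0.21, had an adjusted p of 0.197, and passed with no filter on low counts (adjusted p = 0.00234).

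PDGFA rose less, and from 12 h on its means lay between 66.9 and 86.6 CPM. This gene (ENSG00000197461, chromosome 7, 497258 to 520296, minus strand) encodes the PDGF A chain. Its levels were 30.4 and 27.8 CPM at 0 h, 44.2 and 46.7 CPM at 0.5 h, 75.6 and 80.9 CPM at 12 h, 68.1 and 65.6 CPM at 24 h, 74.2 and 99.0 CPM at 48 h, and 66.9 and 75.9 CPM at 96 h. From 12 h on, every library was above every library of 0 h and 0.5 h. PDGFA was higher than at 0 h by 1.43 ± 0.18 (log2) at 12 h (2.69-fold, adjusted p = 2.99e-06), 1.20 ± 0.18 at 24 h (adjusted p = 3.62e-05), 1.56 ± 0.18 at 48 h (adjusted p = 6.77e-07) and 1.30 ± 0.20 at 96 h (adjusted p = 1.92e-05). The change at 0.5 h, 0.64 ± 0.19, had an adjusted p of 0.314. The difference between 96 h and 12 h was -0.13, with a 95% interval of -0.49 to 0.23.

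PDGFC rose late and from a low level. It encodes a PDGF ligand that needs proteolytic release of its CUB domain (ENSG00000145431, chromosome 4, 156760454 to 156971799, minus strand). Its levels were 4.65 and 4.92 CPM at 0 h, 6.31 and 3.30 CPM at 0.5 h, 7.39 and 8.40 CPM at 12 h, 7.11 and 4.08 CPM at 24 h, 10.7 and 10.3 CPM at 48 h, and 24.9 and 20.6 CPM at 96 h. These were 11 to 32 counts per library. Both 96 h libraries were above all others, and both 48 h libraries were above all earlier ones. The log2 change against 0 h was 2.23 ± 0.36 at 96 h (4.71-fold, adjusted p = 5.12e-05) and 1.13 ± 0.37 at 48 h (adjusted p = 0.0359).

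PDGFC at 48 h passed the threshold only with all 4 libraries, since without 1 of the 0 h or 48 h libraries the adjusted p lay between 0.0910 and 0.158, with log2 changes of 1.08 to 1.15. Against 12 h, PDGFC was higher at 96 h by 1.52 ± 0.34 (adjusted p = 0.00360). Without 96 h replicate 1 this became 1.35 (adjusted p = 0.0654).

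VEGFA rose by 0.5 h, was above 0 h at all later times, and was highest at 96 h. The gene (ENSG00000112715, chromosome 6, 43770184 to 43786487, plus strand) encodes the main growth factor of blood vessel endothelium. Its levels were 25.7 and 24.9 CPM at 0 h, 55.9 and 60.9 CPM at 0.5 h, 171 and 142 CPM at 12 h, 148 and 120.0 CPM at 24 h, 181 and 145 CPM at 48 h, and 253 and 214 CPM at 96 h. Each library of 0.5 h lay between those of 0 h and all later ones, and the 96 h libraries were above all others.

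At 0.5 h VEGFA was 2.31-fold higher than at 0 h (log2 change 1.21 ± 0.19, adjusted p = 6.83e-04). The log2 change reached 2.62 ± 0.18 at 12 h (6.16-fold, adjusted p = 1.98e-10), 2.41 ± 0.18 at 24 h (adjusted p = 9.74e-10), 2.69 ± 0.19 at 48 h (adjusted p = 8.88e-11) and 3.20 ± 0.19 at 96 h (9.20-fold, adjusted p = 4.56e-12). The step from 12 h to 96 h was 0.58 ± 0.16 (adjusted p = 0.0222). That call rested on 3 libraries, with 0.42 without 12 h replicate 2 (adjusted p = 0.222), 0.42 without 96 h replicate 1 (adjusted p = 0.260) and 0.65 without 96 h replicate 2 (adjusted p = 0.0758).

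VEGFB changed only at the last time of those compared with 0 h. It encodes a ligand of FLT1 linked to fatty acid handling (ENSG00000173511, chromosome 11, 64234584 to 64239264, plus strand). Its levels were 45.2 and 51.2 CPM at 0 h, 63.4 and 51.0 CPM at 0.5 h, 41.8 and 47.3 CPM at 12 h, 43.6 and 37.1 CPM at 24 h, 47.1 and 45.4 CPM at 48 h, and 85.6 and 81.2 CPM at 96 h. Libraries before 96 h lay between 37.1 and 63.4 CPM, and both 96 h libraries above all of them. At 96 h VEGFB was 1.73-fold higher than at 0 h (log2 change 0.79 ± 0.19, adjusted p = 0.00272) and 1.87-fold higher than at 12 h (0.90 ± 0.19, adjusted p = 0.00178). The differences at 0.5 h, 12 h, 24 h and 48 h lay between -0.25 and 0.24, with adjusted p of 0.449 to 1.

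VEGFC encodes the main lymphatic growth factor, secreted as a precursor that is cleaved to become active (ENSG00000150630, chromosome 4, 176683538 to 176792922, minus strand). Its levels were 6.84 and 14.2 CPM at 0 h, 10.8 and 11.4 CPM at 0.5 h, 7.90 and 6.57 CPM at 12 h, 5.28 and 4.82 CPM at 24 h, 14.0 and 12.4 CPM at 48 h, and 28.8 and 21.3 CPM at 96 h. The 2 libraries of 0 h lay far apart, with both libraries of 0.5 h, both of 48 h and 1 of 12 h between them. The 24 h libraries were the lowest and the 96 h libraries the highest. VEGFC was 2.37-fold higher at 96 h than at 0 h (log2 change 1.25 ± 0.32, adjusted p = 0.00561). Without 0 h replicate 1 the change was 0.80 (adjusted p = 0.116), and without 96 h replicate 1 it was 1.01 (adjusted p = 0.103).

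At 24 h the change of VEGFC against 0 h was -1.03 ± 0.35, with an adjusted p of 0.0538. It passed without 0 h replicate 1 (-1.47, adjusted p = 0.00957), with no filter on low counts (adjusted p = 0.0344) and with no limits on wells (adjusted p = 0.0428). Between 12 h and 96 h VEGFC was higher by 1.78 ± 0.33 (3.42-fold, adjusted p = 6.64e-04). A long non-coding RNA gene on the opposite strand (ENSG00000248388) covers all 503 bases of the VEGFC last exon in GENCODE 44, and VEGFC counts are uncertain because the strand setting of the counting is not given in the sources used here.

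ANGPTL4 (ENSG00000167772, chromosome 19, 8363289 to 8374370, plus strand) rose from 0.5 h on, held its highest levels at 12 h and 24 h, and then came down part of the way. Its levels were 9.58 and 11.0 CPM at 0 h, 41.4 and 21.1 CPM at 0.5 h, 261 and 256 CPM at 12 h, 309.5 and 298 CPM at 24 h, 123 and 103 CPM at 48 h, and 132 and 104 CPM at 96 h. No library of a later time reached down to 0 h, and the 48 h and 96 h libraries overlapped each other well below those of 12 h and 24 h. Against 0 h the log2 change of ANGPTL4 was 4.65 ± 0.25 at 12 h (25-fold, adjusted p = 8.77e-12), 4.88 ± 0.25 at 24 h (29.4-fold, adjusted p = 4.61e-12), 3.46 ± 0.25 at 48 h (adjusted p = 8.26e-10) and 3.51 ± 0.26 at 96 h (11.4-fold, adjusted p = 8.81e-10).

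ANGPTL4 was 3.0-fold higher at 0.5 h (log2 change 1.59 ± 0.27, adjusted p = 0.00252). This call was lost without 0 h replicate 1 (1.49, adjusted p = 0.154), 0 h replicate 2 (1.68, adjusted p = 0.0649) or 0.5 h replicate 1 (1.03, adjusted p = 0.163). From 24 h to 48 h ANGPTL4 fell by 1.42 ± 0.20 on the log2 scale (2.68-fold lower, adjusted p = 8.34e-05). At 96 h it was 2.19-fold lower than at 12 h (log2 change -1.13 ± 0.20, adjusted p = 5.92e-04).

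STC1 rose by 12 h and again after 24 h. The gene (ENSG00000159167, chromosome 8, 23841929 to 23854806, minus strand) had levels of 3.01 and 7.82 CPM at 0 h, 5.71 and 8.38 CPM at 0.5 h, 28.3 and 25.5 CPM at 12 h, 14.0 and 31.1 CPM at 24 h, 53.5 and 55.2 CPM at 48 h, and 146 and 140.4 CPM at 96 h. The libraries of 0 h and 0.5 h overlapped, those of 12 h and 24 h overlapped, and those of 48 h and 96 h each stood above all earlier ones. STC1 was higher than at 0 h by 2.32 ± 0.37 (log2) at 12 h (4.98-fold, adjusted p = 1.97e-04), 2.0 ± 0.38 at 24 h (adjusted p = 0.00118), 3.33 ± 0.36 at 48 h (10.1-fold, adjusted p = 1.35e-06) and 4.73 ± 0.35 at 96 h (26.5-fold, adjusted p = 7.76e-09). It was 5.32-fold higher at 96 h than at 12 h (2.41 ± 0.28, adjusted p = 1.11e-05). The size of the changes against 0 h depended on which 0 h library was used. Without 0 h replicate 2 the log2 change was 3.13 (12 h), 2.81 (24 h), 4.12 (48 h) and 5.52 (96 h). Between libraries of replicate 2 the log2 ratio of CPM + 1 was 1.59, 1.87, 2.67 and 4.00 at these times in order. Between those of replicate 1 it was 2.87, 1.90, 3.76 and 5.20. Without 24 h replicate 2 the change at 24 h was 1.40.

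Sums were also limited to the 206 cells of 3000 or more genes whose mitochondrial share was 20% or less. There the change of STC1 at 12 h was 0.31 (adjusted p = 0.887) and that at 96 h 3.11 (adjusted p = 2.26e-06). Of 25 alternatives to the main processing, 1 lost the STC1 call at 24 h (lowest change 0.74) and 1 that at 48 h (lowest change 1.07). The STC1 step from 24 h to 48 h was lost in 3, with a lowest change of 0.33.

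STC2 (ENSG00000113739, chromosome 5, 173314723 to 173328447, minus strand) was the only member called lower than at 0 h in this fit, at 12 h, 24 h and 48 h. Its levels were 44.1 and 35.3 CPM at 0 h, 57.1 and 41.9 CPM at 0.5 h, 20.4 and 17.3 CPM at 12 h, 11.0 and 11.9 CPM at 24 h, 18.1 and 10.8 CPM at 48 h, and 21.8 and 45.9 CPM at 96 h. All libraries of 12 h, 24 h and 48 h were below all those of 0 h and 0.5 h, whereas at 96 h replicate 1 was below and replicate 2 above the 0 h libraries. STC2 was 2.10-fold lower at 12 h (log2 change -1.07 ± 0.26, adjusted p = 0.00614), 3.49-fold lower at 24 h (-1.80 ± 0.28, adjusted p = 7.21e-05) and 2.66-fold lower at 48 h (-1.41 ± 0.29, adjusted p = 9.96e-04). At 96 h the change was -0.21, with a 95% interval of -0.75 to 0.34 (adjusted p = 0.645).

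The STC2 difference at 12 h did not pass in 5 of 25 alternatives, and its change over all 25 ranged from -1.23 to -0.32. Without 0 h replicate 1 it was -0.90, and without 12 h replicate 2 it was -0.93. At 24 h the STC2 difference did not pass in 1 of 25 alternatives, with changes of -2.61 to -1.37 over all of them. In the 206 cells under stricter limits STC2 at 48 h was at 0.03 against 0 h. That value rests on 7 and 13 cells at 0 h and on 6 and 58 cells at 48 h.

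**Figure D2:**
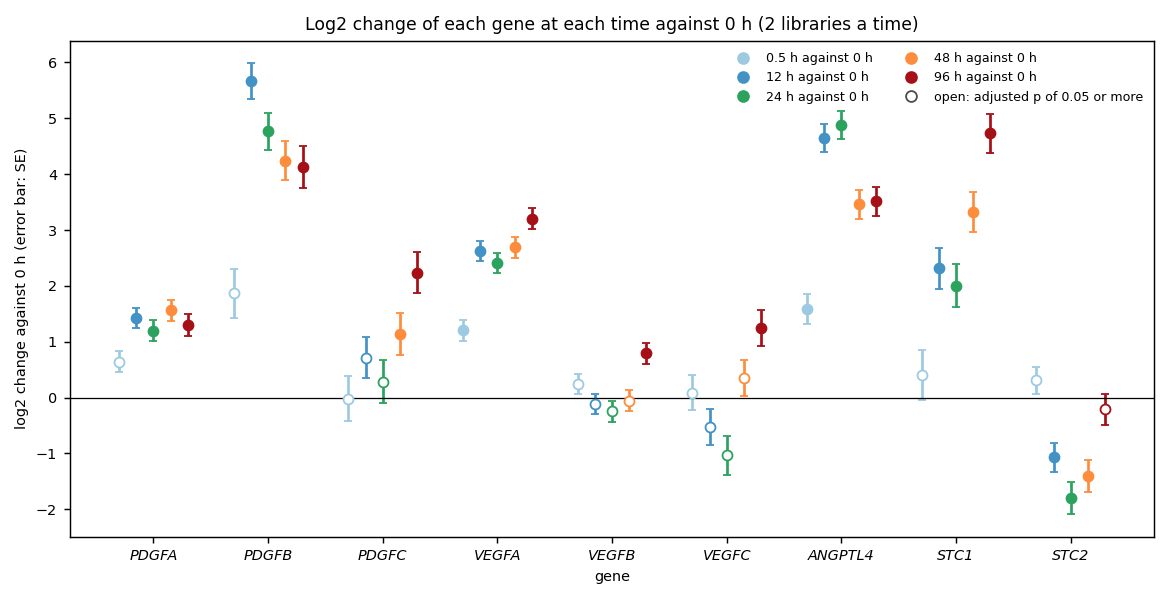
Log2 change of each gene (x axis) at 0.5 h, 12 h, 24 h, 48 h and 96 h against 0 h (y axis), from the fit over 12 libraries, with SE as bars and open points where the adjusted p was 0.05 or more. PDGFB at 12 h (5.66) was the highest point, STC2 at 24 h (-1.80) the lowest, and all points of a gene share the same 0 h libraries.

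Comparisons of successive times located the later steps. Between 12 h and 24 h none of the 9 genes passed, as for all 10466 genes (0% higher and 0% lower by edgeR, with 572 genes at an unadjusted p under 0.05 and 2 genes past the threshold by DESeq2). Between 24 h and 48 h, 2 members were higher and 1, ANGPTL4, lower, against 2.61% and 2.63% of genes. VEGFC was higher by 1.38 ± 0.36 (2.60-fold, adjusted p = 0.0225), and without any 1 of the 4 libraries its adjusted p was 0.0593 to 0.130. STC1 was higher by 1.33 ± 0.30 (2.51-fold, adjusted p = 0.0118), by 0.80 without 24 h replicate 1 (adjusted p = 0.169) and by 1.92 without 24 h replicate 2 (adjusted p = 1.52e-04).

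From 48 h to 96 h, 2 members were higher and 0 lower, against 0.803% and 0.411% of genes. VEGFB was higher by 0.85 ± 0.19 (1.80-fold, adjusted p = 0.0231), and STC1 by 1.40 ± 0.27 (2.64-fold, adjusted p = 0.0125). Without any 1 of the 4 libraries of 48 h and 96 h neither passed, with changes of 0.81 to 0.88 for VEGFB (adjusted p of 0.0973 to 0.213) and 1.37 to 1.42 for STC1 (adjusted p of 0.0512 to 0.113). STC2 had means of 14.4 CPM at 48 h and 33.9 CPM at 96 h, a change of 1.20 ± 0.32 that did not pass (adjusted p = 0.0737). Between 12 h and 96 h, 5 members were higher (PDGFC, VEGFA, VEGFB, VEGFC, STC1) and 2 lower (PDGFB, ANGPTL4), against 6.13% and 5.54% of genes.

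Profiles over the 12 libraries (log2(CPM + 1)) separated the members by time course, as a description of points that share libraries and depth. PDGFB and ANGPTL4 had a Pearson r of 0.952, PDGFA and VEGFA one of 0.920, and VEGFB and VEGFC one of 0.852. STC2 ran opposite to ANGPTL4 (r = -0.738) and to PDGFB (r = -0.729). Among 5554 genes with a mean of at least 20 CPM, the nearest to PDGFB were CTPS1 (0.981), VGLL3 (0.975) and LBH (0.973), and to ANGPTL4 PAWR (0.977), ULK1 (0.973) and VGLL3 (0.969). The genes near VEGFA included DBN1 (0.978) and FAM89B (0.974). STC1 was nearest to ABHD2 (0.985), CDH2 (0.977) and UBA6 (0.976), and PDGFA to FURIN (0.954), EEPD1 (0.950) and NDST1 (0.950). PDGFC was nearest to HTRA1 (0.949), KDM3A (0.947) and PAM (0.940), VEGFB to AK4 (0.922), MINDY2 (0.903) and DPP3 (0.882), VEGFC to GSTK1 (0.921), LOXL2 (0.917) and EXOC4 (0.915), and STC2 to FXR2 (0.931), PLPP3 (0.893) and ELOVL6 (0.889). All r are over 12 libraries. With Spearman's rho only 3 of the 27 places, 3 for each member, went to the same gene.

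The PDGF receptors and FLT4 were scarce in the same cells. PDGFRA had 19 counts and PDGFRB 2 over all 12 libraries, and FLT4, the VEGFC receptor, had 39, all below the filter for testing. Of 14 listed receptors and co-receptors 12 were in the table and 7 were tested. FLT1 and KDR, also listed, had no row among the protein-coding genes used, so they have no value here. At 12 h 3 of the 7 were higher and 0 lower, and at 96 h 4 were higher and 3 lower, against 8.47% higher and 5.83% lower of all genes at 12 h and 12.5% and 11.1% at 96 h. NRP2, a co-receptor of VEGFC, had 48.1 ± 18.4 CPM (SD, n = 2) at 0 h, 131 ± 6.50 at 12 h (log2 change 1.45 ± 0.20, adjusted p = 1.16e-05) and 161 ± 21.9 at 96 h (1.75 ± 0.21, adjusted p = 7.59e-07). NRP1, a co-receptor of VEGFA, had 116 ± 1.58 CPM at 0 h and 69.9 ± 0.942 at 96 h, where the log2 change was -0.73 ± 0.17 (adjusted p = 0.00242). ITGAV, an integrin chain, had 78.1 ± 12.6 CPM at 0 h and 209 ± 35.6 at 96 h (1.41 ± 0.18, adjusted p = 1.18e-06). ITGB3, its β3 partner, had 0 counts in both 0 h libraries and 15.3 ± 1.87 CPM at 96 h.

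Proteases and matrix partners that release or activate such ligands were followed as a list. Of 11 tested, 4 were higher and 1 lower at 12 h (8.47% and 5.83% of all genes), and 7 were higher and 1 lower at 96 h (12.5% and 11.1%). FURIN, a proprotein convertase that processes PDGF and VEGFC precursors, went from 9.01 ± 0.0419 CPM at 0 h to 72.1 ± 2.82 at 12 h (log2 change 3.0 ± 0.20, adjusted p = 9.32e-11) and 59.3 ± 1.95 at 96 h (2.71 ± 0.22, adjusted p = 1.15e-09). CCBE1, a secreted protein needed for VEGFC activation, went from 0.282 ± 0.0111 CPM at 0 h to 28.8 ± 5.46 at 96 h (6.49 ± 0.71, adjusted p = 4.03e-07). ADAMTS3, the protease it works with, had 2 counts in all. MMP2 had 0 counts in both 0 h libraries and 35.2 ± 5.77 CPM at 96 h.

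Other ligands of the same families gave little signal. Of 13 listed, 9 were in the table and only PDGFD was tested, with 11.5 ± 1.14 CPM at 0 h, 4.39 ± 1.0 at 12 h (log2 change -1.38 ± 0.33, adjusted p = 0.00511) and 8.38 ± 2.44 at 96 h (-0.47 ± 0.37, adjusted p = 0.392). PGF had 20 counts in all, VEGFD 16, ANGPT1 26 and ANGPT2 41.

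Gene lists for pathways known to act on the members differed in their counts. Whether any of these pathways acted on the members was not tested. Of 20 direct TGFβ and SMAD targets, 8 were higher at 0.5 h and 0 lower, 17 were higher at 12 h and 1 lower, and 14 were higher at 96 h and 2 lower, with a median log2 change of 2.03 at 12 h. Of all genes, 0.401% and 0.0478% were higher and lower at 0.5 h. The corresponding shares were 8.47% and 5.83% at 12 h, with 12.5% and 11.1% of all genes for 96 h. PMEPA1, a feedback inhibitor of TGFβ signaling, rose by 3.76 ± 0.18 at 12 h (adjusted p = 4.41e-13) and COL4A1, a basement membrane collagen, by 3.92 ± 0.21 (adjusted p = 2.41e-12). Of 22 hypoxia-inducible targets, 1 was higher and 5 lower at 12 h (median 0.02, with 8.47% and 5.83% of all genes), and 8 were higher and 3 lower at 96 h (median 1.02, with 12.5% and 11.1% of all genes). At 12 h P4HA2, a collagen prolyl hydroxylase subunit, rose by 1.04 ± 0.21 (adjusted p = 9.98e-04), while CA12, a carbonic anhydrase, fell by 1.80 ± 0.21 (adjusted p = 2.36e-06) and ADM, adrenomedullin, by 1.16 ± 0.18 (adjusted p = 5.97e-05). At 96 h the higher ones included BNIP3L, a mitophagy receptor (1.55 ± 0.18, adjusted p = 3.01e-07), and DDIT4, an mTOR inhibitor (1.41 ± 0.20, adjusted p = 6.10e-06). CA12 was again lower at 96 h (-2.43 ± 0.22, adjusted p = 4.03e-08), with the lowest adjusted p of this list.

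HIF factors and their regulators counted 2 higher and 0 lower of 6 at 12 h (8.47% and 5.83% of all genes), and 1 higher and 1 lower at 96 h, near the 12.5% and 11.1% of all genes. HIF1A went from 253 ± 42.7 CPM at 0 h to 164 ± 4.84 at 96 h (log2 change -0.63 ± 0.16, adjusted p = 0.00477), and EPAS1, which encodes HIF-2α, from 489 ± 95.3 to 744 ± 56.4 (0.60 ± 0.17, adjusted p = 0.0103). Of 8 PPAR targets 0 were higher and 3 lower at both times, against the same shares of all genes. At 12 h the lipid droplet gene PLIN2 was at -1.45 ± 0.20 (adjusted p = 7.48e-06), the kinase gene PDK4 at -2.55 ± 0.35 (adjusted p = 9.61e-06), and CPT1A, the carnitine palmitoyltransferase of fatty acid import, at -0.66 ± 0.20 (adjusted p = 0.0228). Of 12 ATF4 and stress response targets, a group to which STC2 is often assigned, 0 passed at 12 h in either direction, and at 96 h 2 were higher and 2 lower, near the 12.5% and 11.1% of all genes. SLC7A11, the cystine transporter, fell by 1.39 ± 0.15 at 96 h (adjusted p = 1.78e-07), and TRIB3 rose by 0.84 ± 0.22 (adjusted p = 0.00621).

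Of 15 other secreted growth factors tested, 4 were higher and 5 lower at 12 h (8.47% and 5.83% of all genes), and 9 were higher and 4 lower at 96 h (12.5% and 11.1%). IL11, a cytokine of the IL-6 family, went from 2.98 ± 1.11 CPM at 0 h to 206 ± 6.31 at 12 h (log2 change 6.10 ± 0.31, adjusted p = 1.47e-11). AREG, an EGF receptor ligand, went from 136 ± 42.0 to 10.6 ± 3.43 CPM at 12 h (-3.68 ± 0.26, adjusted p = 1.03e-09). Among the marker lists, 2 A549 epithelial markers were higher and 4 lower of 10 at 12 h, and 1 was higher and 7 lower at 96 h. EGFL7, the 1 endothelial marker tested, was higher at 48 h (log2 change 1.39, from a mean of 4.76 CPM at 0 h to 12.5 CPM) and did not pass at the other times against 0 h. CD14, the 1 immune marker tested, was lower at both. Of 2 fibroblast and pericyte markers tested, 0 passed at 12 h and LUM was higher at 96 h (2.94 ± 1.34 CPM against 0.137 ± 0.194).

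Per cell, PDGFB, ANGPTL4, VEGFA and STC1 had more cells with a UMI, and more UMIs in those cells, at their highest level than at 0 h. To compare cells at 1 depth, UMIs were drawn at random from each cell down to 1 fixed number, which 1684 of the 1871 kept cells reached (51 to 192 per library). For background, 2187 wells with under 1000 detected genes were read without thinning (median of 975 UMIs against 21419 in kept cells). Because these wells are so much shallower, their shares and those of thinned cells are not on 1 scale. PDGFB was seen in 2.03% ± 1.97 of cells (mean ± SD of 2 libraries) at 0 h, 60.8% ± 0.579 at 12 h and 26.0% ± 7.59 at 96 h. The background wells held it in 0.291% at 0 h and 10.9% at 12 h. In the 2 libraries of 0 h it was in 3.43% and 0.637% of cells and in 0.581% and 0% of background wells, which were far shallower. Cells with PDGFB averaged 1.0 UMI of it at 0 h and 2.06 UMIs at 12 h. In the 12 h libraries 2.43% of cells held 6 or more.

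ANGPTL4 was seen in 7.95% ± 3.17 of cells at 0 h and in 27.5% ± 9.77 of cells at 0.5 h. Its share was 81.8% ± 2.12 of cells at 12 h and 87.8% ± 1.60 of cells at 24 h. It was 55.3% ± 1.83 of cells at 48 h and 49.7% ± 3.76 of cells at 96 h. Background wells, at their far lower depth, held it in 0.299% at 0 h and 30.7% at 24 h. The most UMIs of ANGPTL4 in a thinned cell were 18 at 12 h. The variance of ANGPTL4 UMIs over their mean was 1.45 at 0 h, 2.70 at 12 h and 3.0 at 96 h, and the 10% of cells with most UMIs held 28.5% of its UMIs at 24 h and 48.9% at 96 h.

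VEGFA was seen in 23.6% ± 2.66 of cells at 0 h, in 45.0% ± 1.56 of cells at 0.5 h, in 72.7% ± 0.451 of cells at 12 h and in 82.6% ± 2.38 of cells at 96 h. At 96 h 11.8% of cells held 6 or more VEGFA UMIs, and background wells held it in 18.6%. STC1 was seen in 5.18% ± 1.68 of cells at 0 h, in 20.1% ± 4.13 of cells at 12 h, in 38.1% ± 1.27 of cells at 48 h and in 61.3% ± 0.792 of cells at 96 h, with 12.8% of background wells at 96 h. The variance of STC1 UMIs over their mean reached 3.46 at 96 h. PDGFA was seen in 26.2% ± 0.733 of cells at 0 h and 54.8% ± 2.04 at 12 h, with 6.81% and 20.5% of background wells.

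The remaining members were seen in fewer cells or changed less. PDGFC went from 6.04% ± 0.463 of cells at 0 h to 24.0% ± 4.82 at 96 h, and VEGFC from 8.84% ± 2.81 at 0 h through 4.23% ± 0.00527 at 24 h to 27.2% ± 0.330 at 96 h. Cells with VEGFC averaged 1.21 UMIs of it at 0 h and 1.13 at 96 h. VEGFB went from 42.2% ± 1.53 to 57.0% ± 0.198 between the same ends. STC2 went from 29.4% ± 3.71 at 0 h through 12.3% ± 0.514 at 24 h to 20.1% ± 0.726 at 96 h. Background wells over all times held PDGFC in 2.29%, VEGFC in 0.640%, VEGFB in 2.56% and STC2 in 1.92%. All shares cover cells with a UMI at this depth, not all cells that express a gene.

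**Figure D3:**
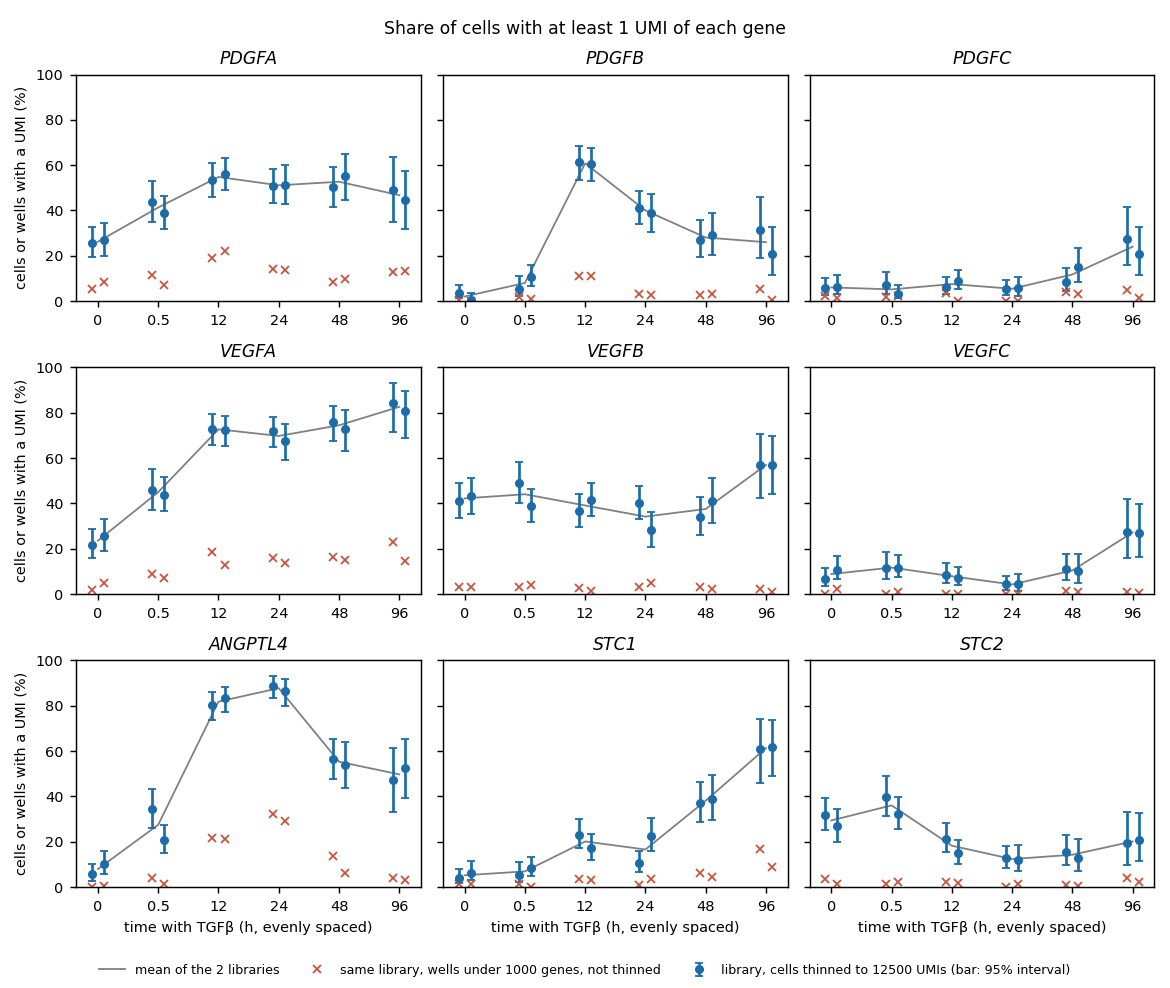
Share of cells with at least 1 UMI of each gene (y axis, percent) at each time with TGFβ (x axis, hours, evenly spaced), as points per library for cells thinned to 1 depth with exact binomial 95% intervals for counting error, a line for the mean, and crosses for unthinned wells with under 1000 genes of the same library. The ANGPTL4 share was highest at 24 h (87.8%), that of PDGFB at 12 h (60.8%), and those of VEGFA (82.6%) and STC1 (61.3%) at 96 h.

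The number of the 9 genes seen in a thinned cell had a median of 1 in both 0 h libraries and 2 in those of 0.5 h. The median was 4 in the 12 h and 96 h libraries and 3 in the 24 h and 48 h libraries. Cells with none of the 9 were 21.1% and 17.8% of the 0 h libraries and 1.12% and 0% of the 12 h libraries. At 12 h, 52.2% and 54.7% of cells held both PDGFB and ANGPTL4. ANGPTL4 was seen in 85.3% and 90.5% of cells with PDGFB and in 72.5% and 72.4% of cells without it. At 24 h these shares were 92.3% and 85.5% with PDGFB and 86.5% and 87.4% without. Correlations of UMIs across cells within a library were weak, at 0.169 and 0.212 for PDGFB and ANGPTL4 and 0.231 and 0.148 for PDGFA and PDGFB at 12 h, and such values in sparse counts carry no finding.

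**Figure D4:**
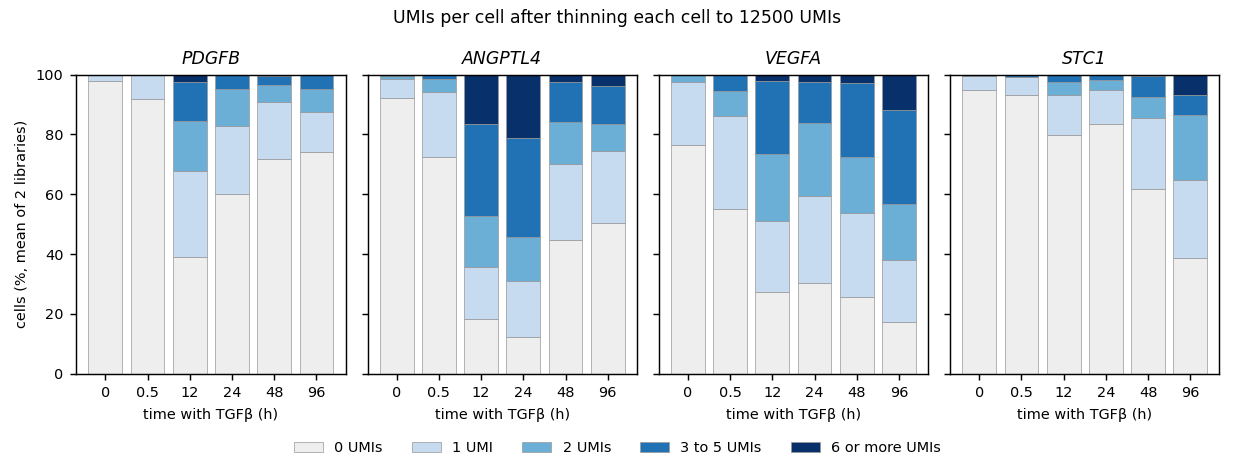
Cells by the number of UMIs of PDGFB, ANGPTL4, VEGFA and STC1 they held after thinning to 1 depth (y axis, percent of cells, mean of 2 libraries, stacked to 100) at each time with TGFβ (x axis, hours). Cells with 6 or more ANGPTL4 UMIs were 16.5% at 12 h and 3.73% at 96 h, whereas for STC1 they were 0.260% at 12 h and 6.72% at 96 h.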

How the data were processed

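CEL-Seq2 libraries of single sorted A549 cells (12 libraries, 384 wells each) were analysed from the counts the authors deposited, whole numbers of UMIs per gene and well, not normalized. Per the labels, the authors trimmed reads (Trim Galore 0.6.7), aligned them to GRCh38 (HISAT2 2.2.1), assigned them to genes (featureCounts 2.0.1) and removed UMI duplicates (UMI-tools), while other versions of Trim Galore and featureCounts stand in the methods. For the annotation release and the strand setting: not given in the sources used here. Wells with 100 to 40000 UMIs, 2000 to 7000 genes and at most 35% mitochondrial UMIs were kept, and their counts over protein-coding genes were added up for each library. VEGFA, typed in the table as a polymorphic pseudogene and coding in GENCODE 44, was added (15872 genes, 88.7% to 91.0% of UMIs). With 1 sorted cell per well, doublets were not searched for.

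Sums were tested with edgeR 4.0.16 in R 4.3.3 (TMM, filterByExpr, robust quasi-likelihood F test) in one model over 12 libraries with a mean per time (6 residual degrees of freedom), with Benjamini-Hochberg adjustment over the 10466 genes of a comparison and a threshold of 0.05. Changes are log2 with SE, computed from the change and F, and levels are TMM-scaled CPM. The smallest library held 1264369 UMIs, where 1 UMI is just under 1 CPM. Alternatives were DESeq2 1.42.0, other scalings, filters and limits on cells, a replicate block and leaving out each library. Tests were checked on simulated data. Shares of cells used thinning with a fixed seed, and intervals cover counting error only. Named were the 9 members, the 3 genes of most similar profile for each, and in each list up to 4 tested genes with the lowest adjusted p at 12 h or 96 h against 0 h; genes given by counts over all libraries were named after their values were seen. A gene that this rule names is not reported here. Members and lists were chosen with earlier results of these data known.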

Additional observations from a re-analysis of the deposited data

How the results depend on the processing

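The 9 genes kept the side of the threshold in 1906 of the values recomputed for a gene and comparison under an alternative, of which 30, called under neither setting, had the other sign. Of the rest 66 no longer passed, 25 newly passed, and 1 called change turned (STC2 at 48 h, 0.028 under stricter limits on cells; the cause was not tested). Stricter limits left 206 cells, 6 to 58 per library, with 4872 genes tested, 7 of the 9 members among them. Against 0 h they called 0 members at 0.5 h (12 of all genes), 4 at 12 h (303) and 3 at 24 h (248). At 48 h they called 4 (429 of all genes) and at 96 h 5 (634). From 24 h to 48 h they called 0 (63 of all genes), and from 48 h to 96 h 1 (29). From 12 h to 96 h they called 2 (271 of all genes), and over all times 5 of the 7 members tested, with no count over all genes given here. Tested against a 1.5-fold change, 0 members passed at 0.5 h, with 21 of 10466 genes. From 24 h to 48 h 1 passed (124 of all genes), and from 48 h to 96 h 0 (13). Leaving out 1 library of a time not compared gave 2 to 3 members at 0.5 h (40 to 54 of all genes). From 24 h to 48 h it gave 3 (501 to 541 of all genes), and from 48 h to 96 h 2 (114 to 136). Leaving out a library of a compared time, which leaves 1 library there, called as many members as the main fit or fewer. With no filter on low counts 1 member, PDGFB, passed from 12 h to 24 h, where 32 of 15453 genes did. With a replicate block PDGFB passed as well (adjusted p = 0.0226), where 21 of 10466 genes did. With no filter 3 members passed at 0.5 h (64 of 15453 genes) and 3 from 48 h to 96 h (259 genes). With only the 2 groups in the fit 1 member passed from 48 h to 96 h (40 of 8809 genes). Without VEGFA among the genes, an alternative chosen after seeing the data, 1 member passed at 0.5 h (46 of 10465 genes). DESeq2 did not call PDGFC at 48 h (adjusted p = 0.138), VEGFC from 24 h to 48 h (adjusted p = 0.0768) or VEGFA from 12 h to 96 h (adjusted p = 0.0590).

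The replicate number as a block gave 4 genes from 48 h to 96 h, and also called VEGFC at 24 h (adjusted p = 0.0416) and PDGFB at 0.5 h (adjusted p = 0.0257). Over all genes the block called 238 genes for that step, against 84 higher and 43 lower without it, and 21 against 0 from 12 h to 24 h. Against 0 h it called 1899 genes at 12 h (886 higher and 610 lower without it). At 96 h it called 2811 (1312 higher and 1166 lower without it), and it called more genes in the other comparisons too. The number goes with the barcode set (0 of 384 barcodes shared), and deviations of libraries with 1 number correlated over 0.1 in 6 of 15 pairs (-0.0952 to 0.292). The protein-coding share of UMIs was higher in replicate 1 at all 6 times. Whether the number stands for paired samples or for the barcode set cannot be told apart, and the main fit left it out. Shares of cells moved by more than 1 SD in 51 of 54 values without thinning and in 50 at the lower depth that 1861 cells reach, as more or fewer UMIs per cell are read. Of the 27 places for genes of most similar profile, 3 went to the same gene by Spearman's rho. Genes at a few CPM, PDGFC and VEGFC among them, rest on 11 to 49 counts per library.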
